A study of Mus musculus with 53 samples.

Results

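The subject is 36 mouse genes of the germ line, listed as genes that somatic cells silence by DNA methylation of their promoters; several were present in these cells without any drug. They were chosen by symbol from a list, with no filter on level. The list, like the others used below, was chosen with earlier results of these data known. Shares called beside those of all genes are therefore a description and not independent support. All 36 were among the 43432 Ensembl genes listed in each of 2 RNA tables from mouse embryonic fibroblasts (MEFs). In the decitabine experiment 34 of the 36 were above 0 in at least 1 library, with Piwil1 and Rpl10l at 0 throughout. In the siRNA experiment 33 were, with Mael, Fkbp6 and Rpl10l at 0 throughout. Of the series' 53 samples, 22 are RNA libraries; the other 31, CUT&Tag profiles of chromatin, were not analysed here. The decitabine table holds 2 libraries of wild-type (WT) cells given DMSO, the solvent, 3 of WT cells given decitabine (DAC), 2 of Anp32e knockout (KO) cells given DMSO and 3 of KO cells given DAC. The siRNA table holds 3 libraries each of WT and KO cells with H2A.Z siRNA or with the control siRNA labelled NT. The labels call the libraries biological replicates (for KO cells with the H2A.Z siRNA, replicates) and give no dose, exposure time, embryo age or description of the knockout allele. Whether replicates came from separate embryos or cultures is not stated, so the tests measure only the spread between these libraries.

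Many germline genes have CG-rich promoters that gain DNA methylation in the early embryo and keep it in body cells, and many are also targets of the E2F6 and MGA-MAX repressor complex. Decitabine is a cytidine analogue that is built into DNA and traps the maintenance methyltransferase DNMT1, so that methylation is lost as cells divide. ANP32E is a chaperone that removes the histone variant H2A.Z from chromatin. H2A.Z and DNA methylation tend to occupy different promoters. DNA methylation itself was not measured in the tables used here, so the data show RNA levels and not the methylation of these genes.

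Sequence windows from RefSeq (GRCm38.p6) were found for 33 of the 36 genes, 39 promoters in all; Piwil2, Tex11 and Tex15 had none in the table. The 7 shown are examples and not a ranking of responses. Dazl and Tex19.1 had higher DAC levels in KO than in WT cells, and Slc25a31 and Tuba3b rose from almost nothing in both. Syce1 was called in KO cells and not in WT cells, and Rhox5 and Xlr3b are X-linked. Each window is the 250 bases before a start given in the promoter table, written 5′ to 3′ on the gene's strand. Every CG, the dinucleotide that carries methylation, is in capitals. For some genes, Xlr3b and Stag3 among them, that start lies inside the span of the gene in the RefSeq gene table, so that the window lies partly or wholly within the gene.
Dazl: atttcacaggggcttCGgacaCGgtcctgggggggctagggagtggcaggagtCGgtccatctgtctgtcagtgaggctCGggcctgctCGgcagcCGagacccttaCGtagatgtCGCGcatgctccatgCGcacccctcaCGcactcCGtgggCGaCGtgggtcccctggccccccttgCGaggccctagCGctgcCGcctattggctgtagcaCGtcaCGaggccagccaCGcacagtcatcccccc
Tex19.1: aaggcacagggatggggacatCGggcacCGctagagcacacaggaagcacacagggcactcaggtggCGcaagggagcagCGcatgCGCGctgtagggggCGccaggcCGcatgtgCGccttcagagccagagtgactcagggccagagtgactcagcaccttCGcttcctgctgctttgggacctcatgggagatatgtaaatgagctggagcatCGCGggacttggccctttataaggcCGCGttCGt
Slc25a31: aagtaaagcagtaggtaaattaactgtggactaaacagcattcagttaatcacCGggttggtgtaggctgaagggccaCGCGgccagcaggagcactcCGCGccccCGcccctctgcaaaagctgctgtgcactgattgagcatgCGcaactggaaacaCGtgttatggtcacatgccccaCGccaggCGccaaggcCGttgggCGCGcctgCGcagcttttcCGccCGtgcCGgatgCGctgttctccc
Tuba3b: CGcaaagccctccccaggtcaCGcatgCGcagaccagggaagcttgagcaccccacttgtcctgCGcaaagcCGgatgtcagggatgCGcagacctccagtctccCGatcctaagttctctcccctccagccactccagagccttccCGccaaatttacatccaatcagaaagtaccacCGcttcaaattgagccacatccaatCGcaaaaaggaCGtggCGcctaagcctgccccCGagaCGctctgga
Syce1: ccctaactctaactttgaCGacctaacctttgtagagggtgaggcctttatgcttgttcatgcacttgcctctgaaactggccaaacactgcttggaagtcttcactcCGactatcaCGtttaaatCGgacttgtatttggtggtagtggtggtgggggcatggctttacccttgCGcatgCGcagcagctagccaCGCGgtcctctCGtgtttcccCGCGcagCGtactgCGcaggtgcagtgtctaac
Rhox5: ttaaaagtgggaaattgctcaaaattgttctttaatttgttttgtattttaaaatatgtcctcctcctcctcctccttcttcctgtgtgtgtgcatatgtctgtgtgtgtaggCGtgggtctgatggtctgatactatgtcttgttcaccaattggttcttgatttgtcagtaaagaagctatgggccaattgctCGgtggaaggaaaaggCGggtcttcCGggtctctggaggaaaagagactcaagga
Xlr3b: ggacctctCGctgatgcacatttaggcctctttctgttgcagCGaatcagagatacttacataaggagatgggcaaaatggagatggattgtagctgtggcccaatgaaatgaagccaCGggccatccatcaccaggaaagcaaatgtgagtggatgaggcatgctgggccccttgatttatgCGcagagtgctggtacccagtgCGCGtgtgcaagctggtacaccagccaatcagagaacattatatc
Dazl lies at chr17:50293621-50293870 on the minus strand with 20 CG, and Tex19.1 at chr11:121145893-121146142 on the plus strand with 15. Slc25a31 lies at chr3:40708621-40708870 (plus) with 18, Tuba3b at chr6:145615713-145615962 (plus) with 14 and Syce1 at chr7:140787855-140788104 (minus) with 13. The X-linked pair is poorer in CG: Rhox5 at chrX:37754358-37754607 (plus) has 4 and Xlr3b at chrX:73191929-73192178 (plus) has 6.

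Across the 39 member promoters the median number of CG was 15, with a range of 3 to 31, against a median of 6 over all 32851 promoters of the table. The ratio of observed to expected CG was 0.671 at the median for members and 0.373 for all promoters. The motif CACGTG, an E-box that reads the same on both strands and that MAX-containing dimers bind, occurred in the windows of 15 of the 33 members (45.5%) and of 1854 of all 27025 genes (6.9%). Among promoters with at least 10 CG it stood in 18 of 30 member promoters and in 9.4% of all, with overlapping windows of a gene counted separately. The motif GCGGGA, searched on both strands as the core of an E2F site, occurred in 11 members (33.3%) and in 18.8% of all genes, and 4 members held both motifs, which can share a base. Among promoters with at least 10 CG its share was 33.3% in members and 37.3% in all. These matches describe the letters of the windows only.

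**Figure D1:**
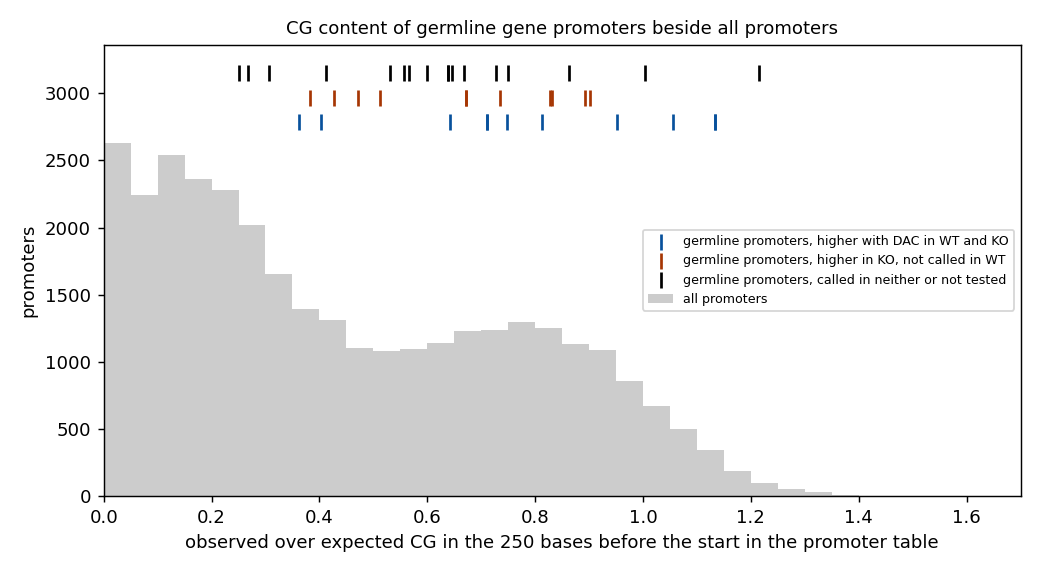
The x axis is the ratio of observed to expected CG in the 250 bases before the start in the promoter table, and grey bars count all 32851 promoters. Ticks above the bars are the 39 germline promoters, split by their DAC response; they lie at a median of 0.671, to the right of the median of 0.373 for all promoters.

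The knockout label was checked on Anp32e RNA, which was 4.87 to 7.48 FPKM in the KO libraries and 14.1 to 17.2 FPKM in the WT libraries of the decitabine table, lower but not absent. The siRNA lowered H2afz, the main H2A.Z gene, from 199 to 203 RPKM with NT to 16.7 to 17.5 RPKM in WT cells, and from 184 to 199 RPKM to 26.4 to 30.4 RPKM in KO cells. Fibroblast markers such as Col1a1 and Vim were all above 0 in every library, and their 8 members summed to 1797 to 3432 FPKM. They moved with drug and genotype: with DAC 1 was called higher and 4 lower in WT, 4 higher and 4 lower in KO cells, and in DMSO 1 was higher and 5 lower in KO than in WT. Col1a1 fell by 1.15 (SE 0.11) in WT and 0.93 (SE 0.11) in KO cells with DAC on the log2(FPKM + 0.1) scale, and the part of such shifts in the results on germline genes was not tested. Genotypes differed in sex: 4 Y-linked genes summed to 10.1 to 21.6 FPKM in KO libraries and at most 0.164 FPKM in WT libraries. Xist was 136 to 210 FPKM in WT libraries, 0.579 and 0.923 FPKM in the KO DMSO libraries and 28.5 to 44.4 FPKM in the KO DAC libraries. A difference between KO and WT therefore cannot be told apart from a difference in sex or in the embryos the cells came from. Each table had 2 libraries that stood apart within their groups, WT DAC replicate 3 and KO DAC replicate 1 in the first and WT NT replicate 1 and KO NT replicate 1 in the second. Without them 12 members instead of 13 were called higher with DAC in WT cells, 20 instead of 22 in KO cells and 6 instead of 7 in the interaction, and none with the H2A.Z siRNA. Library totals, solved from the steps between values, were 27503472 to 36910532 reads in the decitabine table and 31928320 to 47172427 in the siRNA table.

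Decitabine raised germline RNA in both genotypes, and further in KO cells. In WT cells 15 of the 36 genes were above 0 in every DMSO library. In KO cells the number was also 15, but not of the same genes: Rhox5 was in the WT set only and Dazl in the KO set only. With DAC the number was 25 in WT and 29 in KO cells. Genes with a mean of at least 1 FPKM numbered 4 and 6 in WT cells with DMSO and DAC, and 2 and 8 in KO cells. The summed level of the 36 genes was 9.79 to 10.2 FPKM in WT DMSO and 25.2 to 28.6 FPKM in WT DAC. In KO cells it went from 7.51 to 8.08 FPKM with DMSO to 50.3 to 51.1 FPKM with DAC, and the 4 groups did not overlap. The sums of the group means differed 2.72-fold in WT and 6.49-fold in KO cells. Rhox5, Stag3, Tuba3b and Tex15 made up 78.2% of the gain in WT and 64.8% in KO cells. Silence was not complete without the drug: Sycp3, Stag3, Tex15 and Xlr3b had means of at least 1 FPKM in WT DMSO cells. In bulk RNA, fewer cells with a transcript and less of it per cell cannot be told apart.

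**Figure D2:**
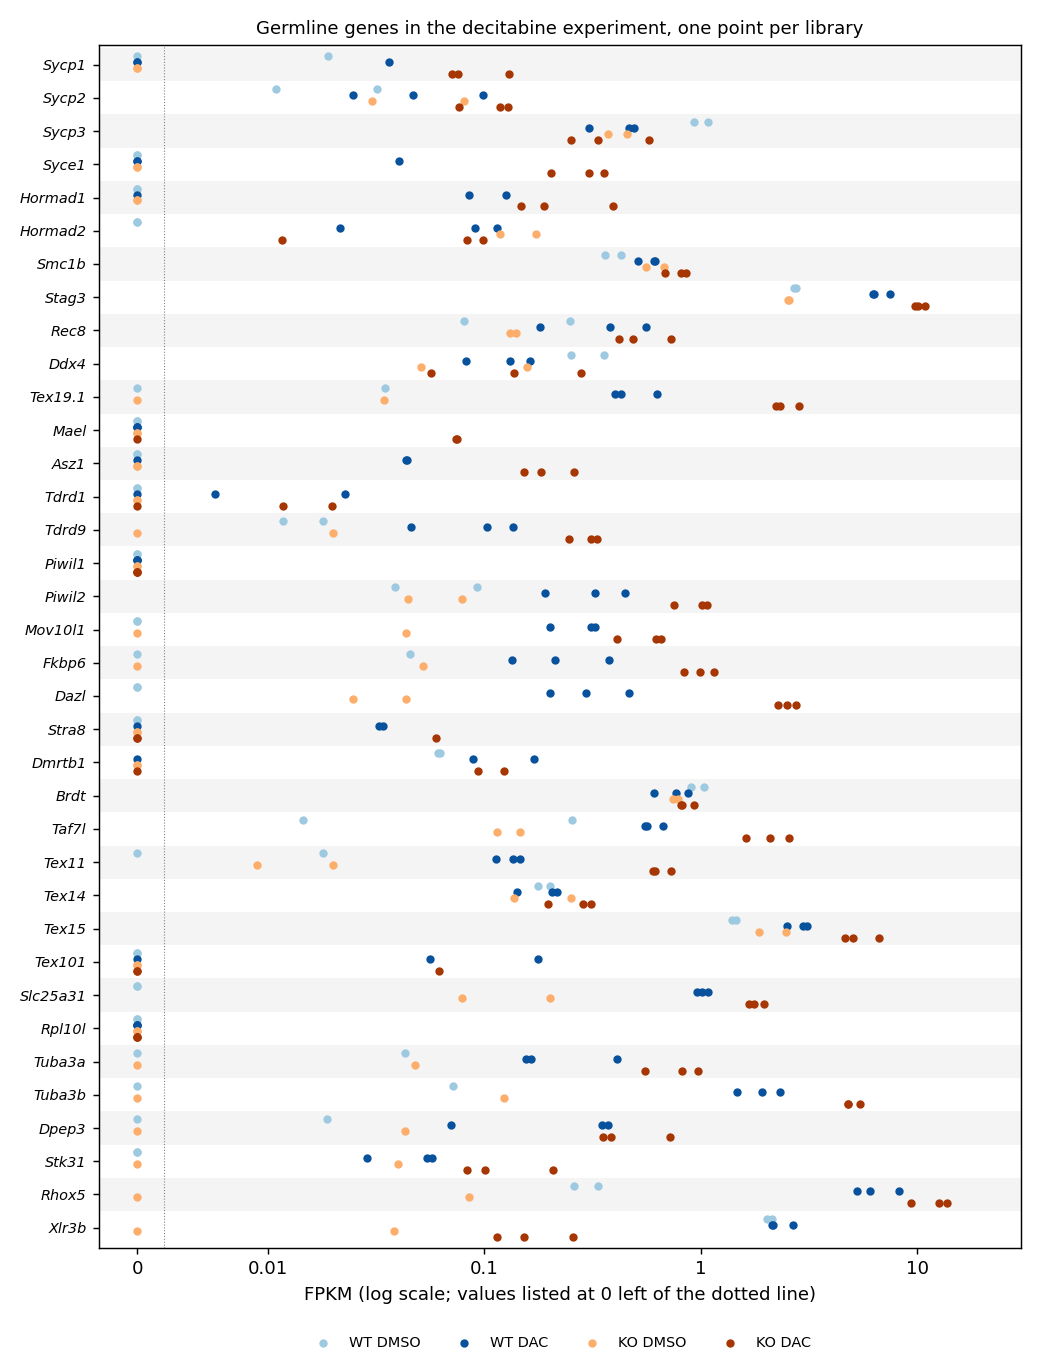
Each point is 1 library of the decitabine table, with the level in FPKM on a log axis and values of 0 left of the dotted line; colours are the 4 groups of 2 or 3 libraries. Most genes sit at or near 0 in DMSO, and for Dazl, Tex19.1 and Tex11 the KO DAC libraries lie to the right of the WT DAC libraries.

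Levels were compared with limma on log2(FPKM + 0.1), fitted over all 30078 genes above 0 in at least 1 library, with calls made where the p adjusted by Benjamini and Hochberg was under 0.05. Changes below are differences on that scale with their standard error (SE); for a gene at or near 0 in DMSO their size depends on the added 0.1. With DAC 13 of the 34 tested members were called higher in WT cells, where 8.12% of all tested genes were, and none was called lower (6.73% of all genes). In KO cells 22 of 34 were called higher, beside 13.7% of all genes, and none lower (12.4%). The median change of the 34 was 0.72 in WT and 1.49 in KO cells, and that of all genes was 0.00 in each. Every member called in WT was also called in KO. Libraries of the DAC and DMSO groups did not overlap, with DAC higher, for 18 members in WT (18.6% of all genes) and 24 in KO cells (23.4%). The WT count rests on its controls: without either 1 of the WT DMSO libraries it was 8.

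**Figure D3:**
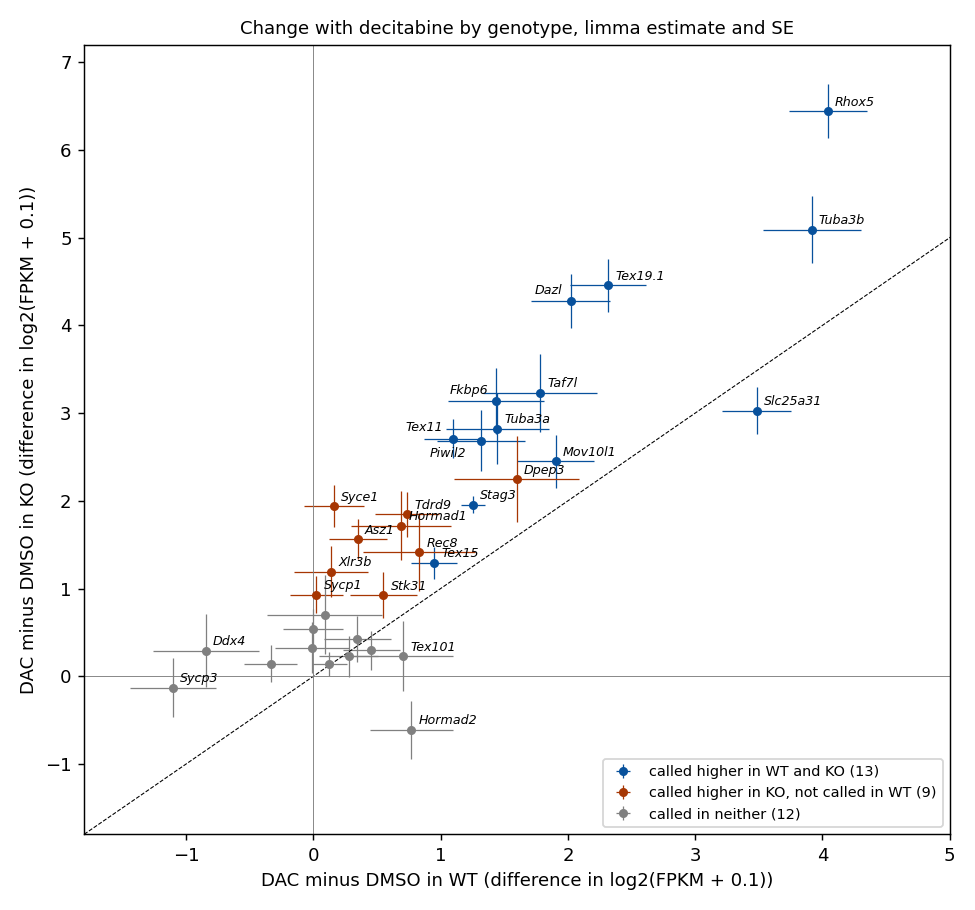
Each point is 1 of the 34 tested genes, with the change with DAC in WT cells on the x axis and in KO cells on the y axis, in differences of log2(FPKM + 0.1), and bars show the SE. The 13 genes called in both genotypes and the 9 called in KO cells alone lie above the dashed line of equal change, except Slc25a31.

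Among the 9 genes of meiotic chromosomes, 1 was called higher with DAC in WT and 5 in KO cells. The WT share, 11.1%, is near the 8.12% of all genes. Stag3, a subunit of meiotic cohesin, was present without the drug, at 2.70 and 2.76 FPKM in WT DMSO and 2.56 and 2.54 FPKM in KO DMSO. With DAC it read 7.46, 6.24 and 6.29 FPKM in WT and 10.8, 9.74 and 10.04 FPKM in KO cells. The DAC libraries lay above the DMSO libraries in each genotype, and the KO DAC libraries above the WT DAC libraries. The change was 1.25 (SE 0.09, limma adjusted p = 8.9e-05) in WT and 1.96 (SE 0.09, adjusted p = 3.2e-06) in KO cells. Its span overlaps Gpc2, a neighbouring gene on the same stretch, whose mean was lower with DAC in each genotype (2.23 and 1.31 FPKM in WT, 3.46 and 1.93 FPKM in KO); the part of Gpc2 reads in Stag3 was not tested.

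Syce1, a protein of the synaptonemal complex that holds paired chromosomes together, was at 0 in all 4 DMSO libraries, where 3 reads would have given at most 0.0746 FPKM. It was at 0, 0.0404 and 0 FPKM in WT DAC and at 0.356, 0.306 and 0.204 FPKM in KO DAC. Only 1 of the 3 WT DAC libraries held any Syce1 read, and all 3 KO DAC libraries lay above it. The change was 0.16 (SE 0.24, adjusted p = 0.749) in WT and 1.94 (SE 0.24, limma adjusted p = 0.00045) in KO cells. Hormad1, which marks unpaired chromosome axes, Rec8, the meiotic kleisin, and Sycp1, the transverse filament of the complex, were also called in KO cells alone. Their KO changes were 1.72 (SE 0.39), 1.42 (SE 0.44) and 0.93 (SE 0.21), with KO DAC means of 0.244, 0.545 and 0.0923 FPKM. Their WT changes were 0.69 (SE 0.39), 0.83 (SE 0.44) and 0.02 (SE 0.21). The difference between the genotypes in these changes was not called for any of them. The rises of Syce1 and Sycp1 were small in level.

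Sycp3, an axis protein of the same complex, had lower values with DAC in WT cells that did not pass the test. It was 0.928 and 1.08 FPKM in WT DMSO and 0.465, 0.304 and 0.494 FPKM in WT DAC, which do not overlap, and 0.374 and 0.459 FPKM in KO DMSO and 0.335, 0.253 and 0.579 FPKM in KO DAC, which do. The WT change was -1.10 (SE 0.34, limma adjusted p = 0.064), and it was called lower with a pseudocount of 1 and on recovered reads. Sycp3 shares 3724 bases with Chpt1, a lipid enzyme gene whose means were 4.25 and 2.58 FPKM in WT cells with DMSO and DAC and 2.00 and 2.01 FPKM in KO cells. Both genes were highest in WT DMSO; the strand setting of the counting is not given in the sources used here, so the part of Chpt1 reads in Sycp3 was not tested. Sycp2, Smc1b and Hormad2 were called in neither genotype, with DAC means of 0.0567 to 0.782 FPKM. Smc1b overlaps Fam118a over 52892 bases and has the same limit.

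Of the 10 genes of the piRNA pathway and transposon control, 9 could be tested; 4 were called higher with DAC in WT and 6 in KO cells. Tex19.1, which restrains retrotransposons in germ cells and placenta, was 0.0348 and 0 FPKM in WT DMSO and 0 and 0.0344 FPKM in KO DMSO. With DAC it reached 0.429, 0.631 and 0.400 FPKM in WT and 2.22, 2.84 and 2.32 FPKM in KO cells. The 4 DMSO libraries held at most 2 reads each, and all KO DAC libraries lay above all WT DAC libraries. The change was 2.32 (SE 0.30, limma adjusted p = 0.00126) in WT and 4.46 (SE 0.30, adjusted p = 1.7e-05) in KO cells. Its window, printed above, holds a GCGGGA and no CACGTG.

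Asz1, a mitochondria-anchored protein of the piRNA-making granules, was at 0 in every DMSO library. It was 0.0437, 0 and 0.0441 FPKM in WT DAC and 0.184, 0.260 and 0.153 FPKM in KO DAC, without overlap. The change was 0.35 (SE 0.23, adjusted p = 0.405) in WT and 1.57 (SE 0.23, limma adjusted p = 0.0012) in KO cells. The PIWI protein gene Piwil2, the helicase gene Mov10l1 and the co-chaperone gene Fkbp6 rose in both genotypes, to 0.321, 0.279 and 0.241 FPKM in WT DAC and to 0.944, 0.564 and 0.993 FPKM in KO DAC. The WT calls of Piwil2 and Fkbp6 were lost with a pseudocount of 1 and with the compared libraries alone, and kept on recovered reads. Tdrd9, another helicase gene, was called in KO cells alone, with a change of 1.85 (SE 0.25) and a mean of 0.296 FPKM. Its WT change was 0.74 (SE 0.25), and the difference between the genotypes in the change was not called. Ddx4, the germ cell marker Vasa, was called in neither genotype, with means of 0.304 and 0.126 FPKM in WT cells with DMSO and DAC and 0.105 and 0.158 FPKM in KO cells. Mael and Tdrd1 were called in neither, and no group mean of either exceeded 0.0497 FPKM. Piwil1 was not detected in any of these libraries.

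Of the 5 germ cell regulators, Dazl and Taf7l were called higher with DAC in each genotype, and Stra8, Dmrtb1 and Brdt in neither. Dazl, an RNA-binding protein that germ cells need to enter gametogenesis, was at 0 in the WT DMSO libraries, where 3 reads would have given at most 0.0332 FPKM, and at 0.0247 and 0.0438 FPKM in KO DMSO. It was 0.294, 0.201 and 0.467 FPKM in WT DAC and 2.74, 2.50 and 2.27 FPKM in KO DAC. Every DAC library lay above every DMSO library, and the KO DAC libraries above the WT DAC libraries. The change was 2.02 (SE 0.31, limma adjusted p = 0.00304) in WT and 4.28 (SE 0.31, adjusted p = 2.4e-05) in KO cells. In reads, the KO DAC libraries held 230 to 248 and the WT DAC libraries 20 to 44.

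Taf7l, a germ cell form of a general transcription factor subunit, was 0.0145 and 0.255 FPKM in WT DMSO and 0.146 and 0.115 FPKM in KO DMSO. It was 0.551, 0.565 and 0.667 FPKM in WT DAC and 2.57, 1.63 and 2.09 FPKM in KO DAC. The WT DMSO libraries differed widely from each other, and no DAC library overlapped them. The change was 1.78 (SE 0.45, limma adjusted p = 0.0304) in WT and 3.23 (SE 0.45, adjusted p = 0.00087) in KO cells. The WT call of Taf7l was lost with a pseudocount of 1 and with the compared libraries alone, and kept on recovered reads. Brdt, the testis bromodomain protein, had means of 0.755 to 0.970 FPKM in the 4 groups with no call. Stra8, the retinoic acid target that starts meiosis, and the transcription factor gene Dmrtb1 stayed at means of at most 0.0864 FPKM.

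In the Tex group, named for expression in testis, Tex11 and Tex15 rose with DAC in each genotype, while Tex14 and Tex101 were not called. Tex11, an X-linked gene needed for meiotic crossovers, was 0.0180 and 0 FPKM in WT DMSO and 0.0201 and 0.00889 FPKM in KO DMSO. It was 0.136, 0.114 and 0.146 FPKM in WT DAC and 0.727, 0.618 and 0.606 FPKM in KO DAC. The 3 levels, DMSO, WT DAC and KO DAC, did not overlap. The change was 1.09 (SE 0.22, limma adjusted p = 0.0118) in WT and 2.71 (SE 0.22, adjusted p = 4.8e-05) in KO cells.

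Tex15, which guides transposon methylation in male germ cells, was already present at 1.40 and 1.46 FPKM in WT DMSO and 2.48 and 1.85 FPKM in KO DMSO. With DAC it was 2.51, 2.97 and 3.11 FPKM in WT and 6.66, 5.06 and 4.67 FPKM in KO cells. The change was 0.95 (SE 0.18, limma adjusted p = 0.00949) in WT and 1.29 (SE 0.18, adjusted p = 0.001) in KO cells, the smallest WT change among the called members. Tex14, a protein of the bridges between germ cells, had means of 0.189 to 0.265 FPKM. Small noncoding RNA genes such as Rnu3b1, at group means of 4855 to 7721 FPKM, lie within its span, and their part in its reads was not tested. Tex101, a sperm surface protein gene, was at 0 in DMSO and at means of 0.0779 and 0.0206 FPKM in WT and KO DAC.

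Of the 6 testis forms of common proteins and enzymes, Rpl10l was at 0, 3 of the 5 tested were called higher in WT and all 5 in KO cells. Slc25a31, the germ cell ADP/ATP carrier, was at 0 in WT DMSO, where 3 reads would have given at most 0.0602 FPKM, and at 0.201 and 0.0793 FPKM in KO DMSO. It was 1.08, 1.02 and 0.960 FPKM in WT DAC and 1.96, 1.77 and 1.67 FPKM in KO DAC. The change was 3.48 (SE 0.27, limma adjusted p = 0.00011) in WT and 3.03 (SE 0.27, adjusted p = 7.9e-05) in KO cells. It alone among the 22 had a larger estimate in WT on this scale, and with a pseudocount of 1 its estimate was larger in KO. The estimate of Mov10l1 was also larger in WT with a pseudocount of 0.01, and those of Mov10l1 and Stk31 on recovered reads. The KO DMSO libraries of Slc25a31 already held reads where the WT DMSO libraries held none, as did those of Dazl, Hormad2, Mov10l1 and Stk31 in at least 1 library.

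Tuba3b, a testis alpha-tubulin, was 0 and 0.0716 FPKM in WT DMSO and 0.123 and 0 FPKM in KO DMSO. It was 2.33, 1.91 and 1.48 FPKM in WT DAC and 4.77, 4.78 and 5.46 FPKM in KO DAC. The change was 3.92 (SE 0.39, limma adjusted p = 0.00034) in WT and 5.09 (SE 0.39, adjusted p = 3.1e-05) in KO cells. Tuba3a, its near-identical copy, had DAC means of 0.244 and 0.780 FPKM in WT and KO; how reads that fit both copies were assigned is not stated, so the split between the 2 genes is uncertain. The WT call of Tuba3a was lost with a pseudocount of 1 and with the compared libraries alone, and kept on recovered reads. Dpep3, a dipeptidase of germ cells, and Stk31, a testis kinase, were called in KO cells alone, with changes of 2.24 (SE 0.49) and 0.93 (SE 0.26). Dpep3 had means of 0.00945 and 0.264 FPKM in WT DMSO and DAC without a call (limma adjusted p = 0.0659).

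The X-linked genes differed from each other. Rhox5, a homeobox gene of the Rhox cluster, had the largest change of all members on this scale in each genotype. With a pseudocount of 0.01 and on recovered reads the WT changes of Slc25a31 and Tuba3b, among others, were larger than that of Rhox5. The highest WT change in any alternative was 4.396 for Rhox5, 6.172 for Mov10l1 and 5.804 for Dazl. Rhox5 was 0.259 and 0.337 FPKM in WT DMSO and 0 and 0.0855 FPKM in KO DMSO. With DAC it was 6.07, 8.26 and 5.30 FPKM in WT and 9.32, 12.6 and 13.8 FPKM in KO cells. The change was 4.04 (SE 0.30, limma adjusted p = 9.3e-05) in WT and 6.44 (SE 0.30, adjusted p = 3e-06) in KO cells. Its window holds only 4 CG, fewer than those of Dazl or Tex19.1.

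Xlr3b, of the Xlr cluster expressed in lymphoid and germ cells, was not silent in WT cells: it was 2.03 and 2.14 FPKM with DMSO and 2.16, 2.66 and 2.14 FPKM with DAC. In KO cells it was 0.0385 and 0 FPKM with DMSO and 0.258, 0.152 and 0.115 FPKM with DAC. Every KO library lay below every WT library. The change with DAC was 0.14 (SE 0.29, adjusted p = 0.847) in WT and 1.19 (SE 0.29, limma adjusted p = 0.0164) in KO cells. Near-identical Xlr3 copies make its reads uncertain.

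Without the drug few members were called between the genotypes. Most members were at or near 0 in DMSO, where a difference could hardly be called, so a missing call does not show equal levels. Called between KO and WT in DMSO were 4 of 34, beside 24.8% of all genes: Hormad2 and Slc25a31 higher in KO and Rhox5 and Xlr3b lower. Hormad2 was at 0 in WT DMSO and at 0.173 and 0.118 FPKM in KO DMSO, a difference of 1.29 (SE 0.36, limma adjusted p = 0.0308). Rhox5 differed by -1.54 (SE 0.33, adjusted p = 0.00958) and Xlr3b by -4.21 (SE 0.32, adjusted p = 2.7e-05). Leaving out WT DMSO replicate 1, WT DMSO replicate 2 or KO DMSO replicate 1 left 2, 1 and 2 calls.

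With DAC the KO level was above the WT level for most members. The KO DAC mean was higher than the WT DAC mean for 28 of the 36, lower for 6 and equal at 0 for 2. Of the 34 tested, 14 were called higher in KO (6.06% of all genes) and only Xlr3b lower (6.04%). Xlr3b differed most, by -3.16 (SE 0.26, limma adjusted p = 0.00017). Among members higher in KO, Dazl led with 2.68 (SE 0.28, limma adjusted p = 0.00056), then Tex19.1 at 2.14 (SE 0.27, adjusted p = 0.00146) and Syce1 at 1.78 (SE 0.21, adjusted p = 0.00116). Libraries did not overlap, with KO higher, for 20 members, beside 13.5% of all genes. The 15 limma calls fell to 10 when WT DAC replicate 2, KO DAC replicate 1 or KO DAC replicate 2 was left out.

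The difference in DAC response was tested as an interaction, the change in KO minus that in WT. Of the 34, 7 had a larger change in KO (5.8% of all genes) and none a smaller one (6.43%). The 7 were Rhox5 (2.40, SE 0.43), Dazl (2.26, SE 0.44), Tex19.1 (2.14, SE 0.42), Syce1 (1.78, SE 0.34), Tex11 (1.62, SE 0.31), Asz1 (1.21, SE 0.32) and Stag3 (0.70, SE 0.13). They belong to 5 of the 6 role groups, all but the testis forms. The median interaction of the 34 was 0.80, and that of all genes 0.02. The count depends on the scale: with a pseudocount of 1 it was 12, all larger in KO. With 0.01 Rhox5 and Stag3 were larger in KO and Slc25a31 smaller. On recovered reads Rhox5, Stag3, Syce1 and Xlr3b were larger and Hormad2 and Slc25a31 smaller. Rhox5 and Stag3 were called larger in KO on each of these 4 scales. For Rhox5 a lower KO level in DMSO enters this difference: KO minus WT was -1.54 (SE 0.33) in DMSO. In DAC it was 0.86 (SE 0.27, limma adjusted p = 0.0838), without a call. With a pseudocount of 0.01 it was not called either, but it was called higher with 1 and on recovered reads. Dazl, at 0 in WT DMSO, had an interaction of 0.89 (SE 0.72, adjusted p = 0.53) with 0.01 and 0.20 (SE 0.90, adjusted p = 0.924) on recovered reads, by limma. The difference between KO DAC and WT DAC levels was called, with KO higher, on all 4 scales for Asz1, Dazl, Stag3, Syce1, Tex11 and Tex15, and for Tex19.1 on all but the pseudocount of 0.01.

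The promoter windows of the responding classes were compared as a description. The median ratio of observed to expected CG was 0.748 for promoters of members called in both genotypes, 0.671 for those called in KO alone and 0.639 for the rest. CACGTG stood in 54.5% of the promoters of each of the first 2 classes and 41.2% of the third. Overlapping windows of Fkbp6, Hormad1, Stk31 and Tdrd1, each with CACGTG, were counted separately, so these are not shares of genes. The classes overlap widely in these values. The lowest ratios were those of a Tdrd1 window (0.25), Stra8 (0.267) and Sycp2 (0.307), genes called in neither genotype. Next came Rhox5 (0.363), a strong responder, and Xlr3b (0.383), called in KO alone. Whether these cells use the starts given in the promoter table was not tested.

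Other germ cell genes were read from lists of their own, beside the 8.12% of all genes called higher with DAC in WT and the 13.7% in KO cells. Of 20 other meiosis genes tested, such as Dmc1 and Msh4, none was called with DAC in either genotype. Of 17 other piRNA genes, 2 were called higher in WT and 3 in KO cells, among them Mybl1, the master regulator of pachytene piRNA genes, with changes of 0.78 (SE 0.11) and 0.85 (SE 0.11), and Tdrd7 with 0.34 (SE 0.08) and 0.89 (SE 0.08); 1, Nanos3, was lower in KO cells. None of 8 spermatid and sperm markers or 8 oocyte markers tested was called. The spermatid markers summed to at most 0.804 FPKM in any library, with Tnp1 and Spaca1 at 0 throughout, and the oocyte markers to at most 0.623 FPKM, with Zp2 and Figla at 0 throughout. Among 11 markers of spermatogonia and precursors, 3 were called higher and 1 lower in each genotype. Zbtb16 was the lower one in WT, by -2.22 (SE 0.28), and Nanog in KO cells, by -2.55 (SE 0.35). Sohlh2, a transcription factor of early germ cells, was called in each genotype: its mean was 0 and 1.46 FPKM in WT DMSO and DAC and 0.0444 and 3.66 FPKM in KO. Gfra1, a receptor that fibroblasts also express, rose by 1.45 (SE 0.08) in WT and 1.04 (SE 0.08) in KO cells. Dppa3, which defines primordial germ cells, was at 0 in every library.

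**Figure D4:**
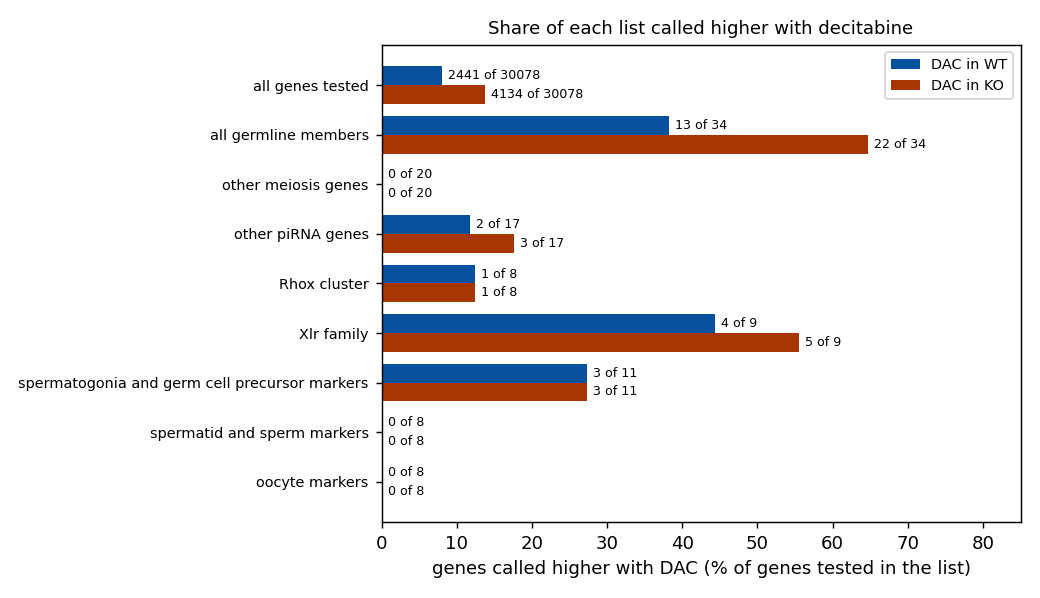
Bars give the share of tested genes called higher with DAC in each list, blue for WT and brown for KO, with counts beside them. The 36 germline genes, of which 34 were tested, reached 38.2% and 64.7%, the Xlr family 44.4% and 55.6%, and the other meiosis genes 0%.

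Of 8 other Rhox genes tested, 1 was called higher and 1, Rhox3a, lower in WT, and 1 higher in KO cells. The share higher, 12.5%, is near that of all genes. The gene called higher was Rhox2a in each genotype, at 0 in all DMSO libraries and at means of 0.241 FPKM in WT DAC and 1.75 FPKM in KO DAC. Of 9 other Xlr genes, 4 were called higher in WT and 5 in KO cells, led in WT by Xlr, at 0.0279 FPKM in DMSO and 1.07 FPKM in DAC, and in KO by Xlr3c, at 0 and 0.919 FPKM. In KO DMSO all 9 were at 0, as Xlr3b nearly was, and 6 of them were above 0 in every KO DAC library. The near-identical Xlr3 copies in this list have the same uncertain reads as Xlr3b, so their calls may not be separate responses.

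Genes of the silencing machinery are given beside the 8.12% of all genes called higher and 6.73% lower with DAC in WT, and the 13.7% and 12.4% in KO cells. In the DNA methylation list of 14, Tet1, Tet3, Dnmt3a and Tet2 were lower with DAC in each genotype. Tet1, an enzyme that oxidises methylcytosine, fell by 1.82 (SE 0.19) in WT and 1.44 (SE 0.19) in KO cells. Uhrf1, the partner of DNMT1, was called higher in KO cells alone, by 0.56 (SE 0.05). Of the 14 PRC1.6 and E2F6 repressor genes, 2 were higher and 2 lower in WT, and 4 higher and 2 lower in KO cells. These are 14.3% each way in WT, and 28.6% higher and 14.3% lower in KO cells. E2f6 rose by 0.87 (SE 0.08) in KO cells, from a mean of 5.90 to 10.9 FPKM, and Max by 0.73 (SE 0.05). In the H3K9 methylation list of 9, Suv39h1 rose by 0.34 (SE 0.06) in WT and 0.96 (SE 0.06) in KO cells, 1 of 2 called higher in WT and 3 in KO, with 2 lower in each.

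Depletion of H2A.Z left the germline genes low. In the siRNA table the 36 genes summed to 3.60 to 4.99 RPKM in WT NT, 3.29 to 4.08 in WT with H2A.Z siRNA, 2.27 to 2.71 in KO NT and 1.63 to 2.38 RPKM in KO with H2A.Z siRNA. In this order 13, 10, 12 and 10 genes were above 0 in every library. Xlr3b in WT cells was the only member with a group mean of at least 1 RPKM. Of the 33 tested, none was called with the H2A.Z siRNA in WT (4.06% of all genes), in KO (7.38%) or in the interaction (0.00304%, 1 gene). At an unadjusted limma p under 0.05 the counts were 2, 2 and 0, beside 4968, 6323 and 1935 of the 32935 genes tested. On recovered reads, by limma-voom, no member was called with the siRNA in WT or in KO cells. With limma 1 was called in WT without WT H2A.Z siRNA replicate 3 and 1 in KO without KO NT replicate 3. The lowest adjusted p of a member with the siRNA in WT cells was that of Ddx4, at 0.143, 0.121 and 0.120 RPKM with NT and 0.0248, 0.0594 and 0.0660 RPKM with the H2A.Z siRNA. The change was -0.61 (SE 0.17, limma adjusted p = 0.0845). Ddx4 was the 1 member whose WT libraries did not overlap, with H2A.Z siRNA lower, as for 3963 of all genes. In KO cells 4 members were lower without overlap (14.2% of all genes): Ddx4, Smc1b, Stag3 and Tex14.

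**Figure D5:**
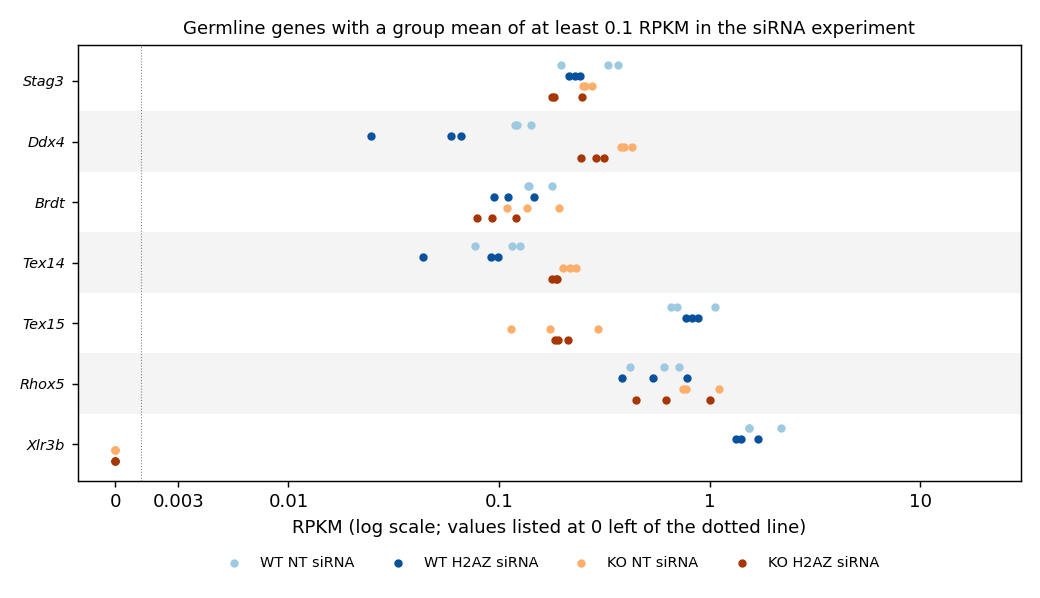
Each point is 1 library of the siRNA table for the 7 germline genes with a group mean of at least 0.1 RPKM, on a log axis in RPKM, with 0 left of the dotted line. Xlr3b is at 0 in all 6 KO libraries and at 1.34 RPKM or more in all WT libraries, and Tex15 is lower in every KO library than in every WT library.

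Among members with a response to DAC, Tex15 was 1.07, 0.658 and 0.698 RPKM in WT NT and 0.828, 0.776 and 0.879 RPKM in WT with H2A.Z siRNA. It was 0.294, 0.114 and 0.175 RPKM in KO NT and 0.190, 0.213 and 0.185 RPKM in KO with H2A.Z siRNA. Rhox5 was 0.718, 0.610 and 0.417 RPKM in WT NT and 0.779, 0.385 and 0.540 RPKM with H2A.Z siRNA. In KO cells Rhox5 was 0.751, 0.777 and 1.10 RPKM with NT and 1.01, 0.620 and 0.450 RPKM with H2A.Z siRNA. For each gene the siRNA groups of a genotype overlapped. Stag3 ranged from 0.179 to 0.366 RPKM over all 12 libraries. Dazl, Tex19.1, Tuba3b and Syce1, all raised by DAC in KO cells, were at means of at most 0.0325 RPKM in every siRNA group.

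Between the genotypes, Ddx4 and Tex14 were higher and Tex15 and Xlr3b lower in KO cells with NT siRNA, where 11.2% of all genes were higher and 16.5% lower, and the same 4 were called with H2A.Z siRNA (9.68% and 17.4%). Xlr3b was 2.19, 1.54 and 1.55 RPKM in WT NT and 1.69, 1.41 and 1.34 RPKM in WT with H2A.Z siRNA, and 0 in all 6 KO libraries, where 3 reads would have given at most 0.0204 RPKM. It was the only member called between the genotypes in the same direction in DMSO and with NT siRNA. Tex15 differed by -1.64 (SE 0.24, limma adjusted p = 0.0005) with NT siRNA, whereas in DMSO its KO mean of 2.17 FPKM was above the WT mean of 1.43 FPKM without a call (adjusted p = 0.0852). Ddx4 differed by 1.13 (SE 0.17, adjusted p = 0.00054) with NT siRNA and by -1.02 (SE 0.46, adjusted p = 0.159) in DMSO. The 2 tables were scaled separately, so only their directions are set side by side.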

How the data were processed

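RNA libraries were made with a stranded total RNA kit and sequenced as paired reads, per the labels' protocols. The submitters' processing notes name STAR and the mm10 build, with no versions; no source used here gives the counting program or its strand setting. The deposited decitabine table holds FPKM and the deposited siRNA table holds RPKM, both normalized by the authors, so no count test is a main result. Values in each library were whole multiples of 1 read within 0.01 read, from which reads and library totals were recovered; among genes with 1 to 20 reads, even numbers made up 64.5% to 66.5% in the decitabine table and 37.5% to 41.3% in the siRNA table, and whether a unit is a read or 1 end of a pair was not settled. Floors of 3 reads cover counting error only, since reads without molecular identifiers are not independent molecules.

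Levels were tested with limma 3.58.1 in R 4.3.3 (intensity trend, Benjamini-Hochberg adjustment) on log2(value + 0.1), in 1 fit of 4 groups per table over genes above 0 in at least 1 library. The fit was tested on simulated data. Each simulated gene started from its mean over all libraries, so that test does not cover genes absent in DMSO. The members and lists were chosen with earlier results of these data known. Values per library are given for members with a group mean of at least 1 in either table and for those called in the DAC interaction; others are given by range, with up to 3 called examples per role group or list; a few unchanged members were added after their values were seen. Alternatives were pseudocounts of 1 and 0.01, filters at 1 and 0.1, median centring, a replicate block, no trend, limma-voom on recovered reads, the compared libraries alone, a 2-fold minimum and libraries left out. Figures used matplotlib 3.10.9 in Python 3.11.15. Protein sequences and the chromatin profiles were not analysed here.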

Additional observations from a re-analysis of the deposited data

Results flagged for a closer look

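For 7 genes the change with decitabine differed between the genotypes by the limma test of the difference itself, the change in KO minus the change in WT on the log2(FPKM + 0.1) scale. Each was larger in KO cells. The difference was 2.40 for Rhox5, 2.26 for Dazl and 2.14 for Tex19.1. It was 1.78 for Syce1, 1.62 for Tex11, 1.21 for Asz1 and 0.70 for Stag3. The calls depend on the scale: of the 7, Rhox5 and Stag3 were called with pseudocounts of 0.1, 1 and 0.01 and on recovered reads, while Dazl had 0.20 (adjusted p = 0.924 by limma-voom) on recovered reads. The call of Asz1 was lost in 14 of 19 alternatives. For Rhox5, KO minus WT was -1.54 in DMSO and 0.86 in DAC, the latter without a call (limma adjusted p = 0.0838). Genotype and sex cannot be told apart in these libraries.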

How the results depend on the processing

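No change with DAC in WT, in KO or in the interaction that was called in the main fit turned direction in any alternative run. Directions of the calls between genotypes were not tabulated. The interaction of Slc25a31 was not called in the main fit. It was called at -2.97 with a pseudocount of 0.01 and was 0.283, without a call, with a pseudocount of 1. The 13 genes higher with DAC in WT became 8 to 12 when 1 library was left out. The 22 in KO became 10 with a filter at 1, which left 10 members to test, and 17 to 22 with 1 library left out. The 7 in the interaction became 12 with a pseudocount of 1, 3 with 0.01, 4 with a filter at 1 and 6 to 8 with 1 library left out. The 4 between genotypes in DMSO became 2 with the compared libraries alone and 1 to 5 with 1 library left out. The 15 between genotypes in DAC became 7 with a pseudocount of 0.01, 8 with a filter at 1 and 10 to 14 with 1 library left out. With H2A.Z siRNA, 1 member was called in WT without an intensity trend and 1 in KO with a pseudocount of 1; leaving out 1 library gave 0 to 1 in each. The 4 between genotypes with NT siRNA became 1 with a filter at 1 and 3 to 5 with 1 library left out, and the 4 with H2A.Z siRNA became 1 with that filter, 8 with median centring and 4 to 6 with 1 library left out. The cause of these moves was not tested, beyond the fewer genes or libraries a setting leaves. A group left with 1 library is assumed to vary like the others.

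With the replicate number as a block, the counts were 11 in WT, 21 in KO, 6 in the interaction, 4 between genotypes in DMSO, 11 in DAC and 0 with the siRNA in each genotype. Correlations of same-numbered libraries ran from -0.145 to 0.296, so the numbers were not taken as a pairing, except for KO NT and KO H2A.Z siRNA libraries, where all 3 pairs were over 0.1 (0.159, 0.135 and 0.272) and the blocked count was 0 as well. At 1 read per kilobase, worth 0.0271 to 0.0364 FPKM, depth limits members near 0.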
